A study of Mus musculus with 8 samples.

Results

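In whole-tumor RNA, 7 enzymes of cholesterol synthesis were followed that act from farnesyl diphosphate through squalene and lanosterol to the end of sterol demethylation. They are Fdft1, Sqle, Lss, Cyp51, Msmo1, Nsdhl and Hsd17b7, chosen with earlier results of these data known. They were found by gene symbol among the 25766 entries of the deposited table. All 7 were among the 14907 genes that passed the filter on low counts. RNA was sequenced from 8 subcutaneous tumors grown from MC38-OVA cells, mouse colon adenocarcinoma cells whose name marks the model antigen ovalbumin. Cells labelled shNT grew into 4 tumors and cells labelled shXBP1, a short hairpin directed at Xbp1, into the other 4, all in female C57BL/6J mice, a strain that 1 treatment note spells C57BL/5J. Every tumor therefore carried OVA and a hairpin construct, and the groups differed by the hairpin. The labels give no time of harvest, no hairpin sequence, no statement that a line was 1 clone, and no mouse number for a tumor, so the p-values reflect only the spread among these samples, which may be technical in part. Values listed for a group are in the order of tumors 1 to 4.

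Cells make cholesterol by joining isoprene units from mevalonate into squalene, closing squalene into the first sterol, lanosterol, and then trimming and rearranging lanosterol. The enzymes of this middle stretch sit in the membrane of the endoplasmic reticulum, and several use oxygen or electrons from NADPH. The first of them commits farnesyl diphosphate to sterols rather than to protein prenylation, dolichol or ubiquinone. The genes of these enzymes are known targets of SREBP2. This transcription factor is first held in the membrane of the endoplasmic reticulum and becomes active when sterols are scarce. XBP1 is a transcription factor that the stressed endoplasmic reticulum activates, and the title of the series ties XBP1 of the cancer cell to cholesterol production and to the myeloid cells of the tumor.

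The starts of these genes were examined for short motifs of factors known to act on sterol genes, and the sequences are shown because the 7 genes moved together. Of the 7 members, 5 matched the RefSeq promoter table (GRCm38.p6); Fdft1 and Sqle did not. Capitals mark matches on either strand to GGGCGG (Sp1), CCAAT (NF-Y), TCACNCCA (a sterol regulatory element form) and CACGTG (E-box). Bases that lie in annotated exons were left out, other than in the 30 bases shown for Msmo1. Lss had the largest fall (chr10:76531355-76531587, plus strand), Cyp51 had the highest level in control tumors (chr5:4104747-4104947, minus strand), Nsdhl lies on the X chromosome (chrX:72918271-72918520, plus strand) and Hsd17b7 had the smallest fall (chr1:169969242-169969455, minus strand). The Msmo1 stretch (chr8:64733739-64733768, minus strand) holds the sole match among the 5 to TCACNCCA, the only form of the sterol regulatory element searched.
Lss: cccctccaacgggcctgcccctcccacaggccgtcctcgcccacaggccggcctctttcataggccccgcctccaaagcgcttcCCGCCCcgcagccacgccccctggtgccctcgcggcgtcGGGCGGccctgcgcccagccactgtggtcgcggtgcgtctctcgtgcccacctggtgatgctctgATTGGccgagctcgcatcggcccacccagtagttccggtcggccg
Cyp51: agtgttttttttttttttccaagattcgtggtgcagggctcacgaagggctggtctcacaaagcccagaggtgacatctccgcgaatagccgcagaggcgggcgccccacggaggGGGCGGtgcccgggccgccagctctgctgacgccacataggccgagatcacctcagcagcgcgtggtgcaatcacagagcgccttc
Nsdhl: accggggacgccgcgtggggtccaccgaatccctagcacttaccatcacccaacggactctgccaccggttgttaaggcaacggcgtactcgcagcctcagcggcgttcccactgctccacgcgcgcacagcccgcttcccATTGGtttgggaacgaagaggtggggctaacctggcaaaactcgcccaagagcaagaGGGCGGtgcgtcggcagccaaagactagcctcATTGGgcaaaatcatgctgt
Hsd17b7: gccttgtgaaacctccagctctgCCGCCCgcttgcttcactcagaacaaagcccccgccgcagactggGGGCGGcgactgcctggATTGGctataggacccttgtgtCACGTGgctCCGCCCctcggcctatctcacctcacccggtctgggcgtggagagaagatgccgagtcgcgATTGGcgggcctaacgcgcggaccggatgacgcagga
Msmo1: ggtctcactattcTCACTCCAtccgcgcag

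In the 250 bases before the start, all 5 promoters held CCAAT and all 5 held GGGCGG, which were found in 33.8% and 32.7% of the 32851 promoters in the table. In Cyp51 the CCAAT match lies 29 to 25 bases before the start, beyond the stretch shown. No match in these 5 promoters overlapped another. TCACNCCA was found in 1 of 5, as TCACTCCA in Msmo1 from 177 to 170 bases before the start, and in 3.67% of all promoters. Only these letters were searched, so other forms of the sterol regulatory element would have been missed. CACGTG was found in 1 of 5, Hsd17b7, and in 6.02% of all. TGACGTG, a form bound by XBP1 and ATF6, was found in 0 of 5 and in 1.65% of all, which says only that these letters are absent from these windows.

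All 7 genes were called lower in shXBP1 tumors, by 2.22-fold (Hsd17b7) to 3.69-fold (Lss), and for all 7 each shXBP1 tumor lay below each shNT tumor. Their median log2 fold change (shXBP1 minus shNT) was -1.56, beside -0.01 over all 14907 genes tested. Of all genes tested, 13.1% were called lower, 16.9% were called higher, and 13.6% had every shXBP1 tumor below every shNT tumor. Because the 7 were chosen with earlier results of these data known, these shares are a scale and not a test. A call is an adjusted p below 0.05 in edgeR's quasi-likelihood test, with the Benjamini-Hochberg method applied across the 14907 genes. Levels are given in CPM, which sets all libraries to the same size. In RNA of whole tumors, fewer cells of a type and less RNA per cell cannot be told apart.

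**Figure D1:**
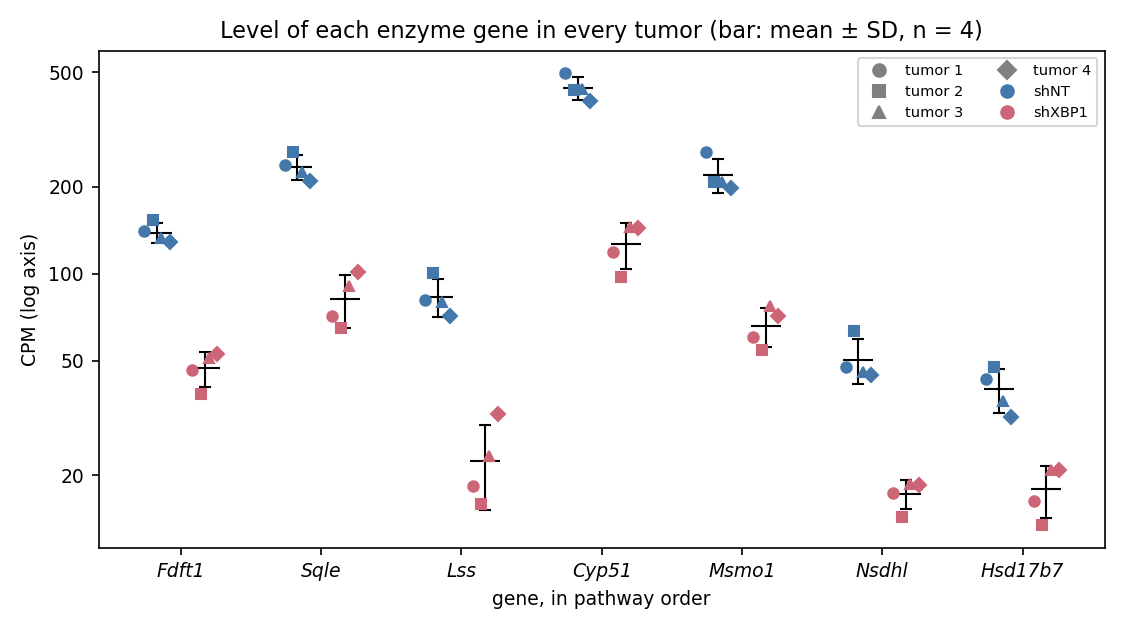
Level of each enzyme gene (CPM, log axis) in the 4 shNT tumors (blue) and 4 shXBP1 tumors (red), with the tumor number given by the symbol and the mean ± SD by the black bar. For all 7 genes the red points lie below the blue points.

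The libraries held 29070605 to 36012997 counts, with scaling factors from 0.980 to 1.04. Xbp1, the targeted gene, stood at 97.3, 96.0, 102.5 and 109.2 CPM with shNT, against 77.2, 76.0, 73.7 and 56.6 CPM with shXBP1. It was lower in every shXBP1 tumor (log2 fold change -0.51, SE 0.10, adjusted p = 0.00255). With the level of Ptprc, a leukocyte gene, as a covariate the log2 fold change of Xbp1 was -1.03 (SE 0.19, edgeR adjusted p = 0.0196). The tumor with the least Xbp1, shXBP1 tumor 4, was not the one with the least of the sterol enzymes, as given below for each gene. Both are levels in whole-tumor RNA, in which the part from the cancer cells was not measured.

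Squalene synthase and squalene epoxidase open the sterol branch. Fdft1 (ENSMUSG00000021273, GRCm38 chromosome 14, 63145150 to 63179578, minus strand) encodes squalene synthase, which joins a pair of farnesyl diphosphates head to head. It stood at 141, 153, 132 and 129 CPM with shNT, against 46.6, 38.2, 50.9 and 52.9 CPM with shXBP1. The lowest shNT tumor was far above the highest shXBP1 tumor, and shXBP1 tumor 2 was the lowest of all. The group means were 138.9 ± 10.8 and 47.1 ± 6.54 CPM (SD, n = 4 each), a 2.95-fold fall (log2 fold change -1.56, SE 0.11, edgeR adjusted p = 3.63e-06).

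Reads of Fdft1 are subject to an overlap. Fdft1 shares 774 exonic bases with Ctsb, a lysosomal protease gene on the opposite strand, and whether the counting used strand is not given here. Ctsb went the other way, from 736 ± 99.6 to 1435 ± 165 CPM (SD, n = 4 each; log2 fold change 0.96, SE 0.12, adjusted p = 0.00013). Fdft1 also has a processed pseudogene, Gm6781, that matches it over 1249 bases at 97.4% identity and was not analysed here. The part of either in the value of Fdft1 was not tested.

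Sqle (ENSMUSG00000022351, chromosome 15, 59315077 to 59331192, plus strand) encodes squalene epoxidase, the oxygen-dependent and rate-limiting step after squalene. Its level was 237, 265, 224 and 210 CPM with shNT, against 71.2, 64.9, 90.6 and 101.3 CPM with shXBP1. The groups did not overlap, and tumor 2 was the highest of the shNT tumors and the lowest of the shXBP1 tumors, as it was for Fdft1. The means were 234 ± 23.5 and 82.0 ± 16.9 CPM (SD, n = 4 each; log2 fold change -1.51, SE 0.14, edgeR adjusted p = 2.35e-05).

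Lanosterol synthase had the lowest log2 fold change of the 7 and the largest SE. Lss (ENSMUSG00000033105, chromosome 10, 76531588 to 76557138, plus strand) encodes the cyclase that folds squalene epoxide into lanosterol. It was at 80.9, 100.7, 80.1 and 71.2 CPM with shNT, against 18.3, 15.9, 23.3 and 32.6 CPM with shXBP1. All 4 shXBP1 tumors were below all 4 shNT tumors, but shXBP1 tumor 4 lay well above the other shXBP1 tumors. The means were 83.2 ± 12.4 and 22.5 ± 7.40 CPM (SD, n = 4 each), a 3.69-fold fall (log2 fold change -1.88, SE 0.21, edgeR adjusted p = 0.000262). An antisense gene, 4930483K19Rik, overlaps 381 exonic bases of Lss and was not analysed here.

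Cyp51 and Msmo1 take the first methyl groups off lanosterol. Cyp51 (ENSMUSG00000001467, chromosome 5, 4081145 to 4104746, minus strand) encodes the cytochrome P450 that removes the methyl group at carbon 14. Its level was 495, 434, 436 and 397 CPM with shNT, against 119, 97.7, 146 and 144 CPM with shXBP1. Every shXBP1 tumor was far below every shNT tumor, with shXBP1 tumor 2 again the lowest. The means were 440.4 ± 40.7 and 126.6 ± 22.9 CPM (SD, n = 4 each), a 3.48-fold fall (log2 fold change -1.80, SE 0.13, edgeR adjusted p = 4.69e-06). Cyp51 shares 166 exonic bases with Akap9 on the opposite strand, a scaffold protein gene at 97.4 ± 8.76 and 86.8 ± 9.25 CPM (SD, n = 4 each; adjusted p = 0.217).

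Msmo1 (ENSMUSG00000031604, chromosome 8, 64718139 to 64733792, minus strand) encodes the methylsterol monooxygenase that oxidizes the methyl groups at carbon 4. It stood at 264, 208, 208 and 199 CPM with shNT, against 60.4, 54.4, 77.3 and 71.2 CPM with shXBP1. The groups did not overlap, and shNT tumor 1 was above the other shNT tumors, as it was for Cyp51. The means were 219.8 ± 29.9 and 65.9 ± 10.3 CPM (SD, n = 4 each), a 3.34-fold fall (log2 fold change -1.74, SE 0.12, edgeR adjusted p = 4.85e-06).

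Nsdhl and Hsd17b7 complete the removal at carbon 4. Nsdhl (ENSMUSG00000031349, chromosome X, 72918557 to 72958514, plus strand) encodes the dehydrogenase that releases the oxidized carbon as carbon dioxide. Its level was 47.4, 63.6, 45.8 and 44.6 CPM with shNT, against 17.4, 14.4, 18.7 and 18.6 CPM with shXBP1. The groups did not overlap, and the shNT spread came mostly from tumor 2. The means were 50.3 ± 8.89 and 17.3 ± 2.01 CPM (SD, n = 4 each), a 2.91-fold fall (log2 fold change -1.54, SE 0.13, edgeR adjusted p = 1.25e-05).

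Hsd17b7 (ENSMUSG00000026675, chromosome 1, 169949535 to 169969241, minus strand) encodes the ketosteroid reductase that restores the hydroxyl group at carbon 3, and it also reduces estrone. It was at 43.3, 47.4, 36.4 and 31.9 CPM with shNT, against 16.3, 13.4, 20.9 and 20.9 CPM with shXBP1. The groups did not overlap, although the gap between the lowest shNT and the highest shXBP1 tumor was narrower than for the other genes. The means were 39.8 ± 6.93 and 17.9 ± 3.68 CPM (SD, n = 4 each), a 2.22-fold fall (log2 fold change -1.15, SE 0.16, edgeR adjusted p = 0.000387). In shXBP1 tumors it kept 45.0% of its shNT level, where the other 6 kept 27.1% (Lss) to 35.0% (Sqle).

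Each call also held when any 1 of the 8 tumors was left out. Lss moved most, from -2.11 to -1.74 on the log2 scale, and Hsd17b7 ranged from -1.24 to -1.03. The authors' deposited table gives log2 fold changes of -1.76 for Lss, -1.74 for Cyp51, -1.68 for Msmo1, -1.52 for Fdft1, -1.48 for Nsdhl, -1.46 for Sqle and -1.09 for Hsd17b7. The order of the 7 genes in that table is the same as in the fit used here.

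Levels between genes were compared per length, in the deposited FPKM, counts scaled to gene length and library size. The median length implied by counts and FPKM was 2.31 kb for Msmo1 and 4.47 kb for Cyp51. Their annotated exons hold 6.14 and 4.42 kb, so the order of genes depends on the lengths that the authors used. In shNT tumors the mean FPKM was 99.0 for Cyp51, 95.2 for Msmo1, 75.2 for Sqle, 42.1 for Fdft1, 20.6 for Nsdhl, 15.8 for Lss and 7.65 for Hsd17b7. Neighbours whose ranges over 4 tumors overlapped were Cyp51 and Msmo1, Msmo1 and Sqle, and Nsdhl and Lss. In shXBP1 tumors the means were 28.7 for Msmo1, 28.6 for Cyp51, 26.5 for Sqle, 14.4 for Fdft1, 7.07 for Nsdhl, 4.32 for Lss and 3.45 for Hsd17b7. There the ranges of Lss and Hsd17b7 overlapped as well, and those of Sqle and Fdft1 and of Fdft1 and Nsdhl were apart in both groups. The summed FPKM of the 7 genes was 381.5, 389.4, 338.1 and 313.0 with shNT, against 101.6, 86.5, 126 and 138 with shXBP1. Hsd17b7 made up 2.14% ± 0.22 of that sum in shNT and 3.04% ± 0.124 in shXBP1 tumors, and Cyp51 27.9% ± 1.16 and 25.3% ± 0.603 (SD, n = 4 each).

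Whether the 7 genes fell by different amounts was asked with ratios of counts within each tumor, which need no scaling of libraries. Of 21 pairs, 0 passed the two-sided exact permutation test after adjustment over the 21, and 7 pairs had ratios that did not overlap between the groups. Each of these 7 reached 0.0286, the smallest p that the 70 assignments allow, with an adjusted p of 0.0857. A pair could not pass at this size unless most of the others also reached the smallest p. The 7 were the 6 pairs that hold Hsd17b7, and Sqle with Lss. Those 6 share 1 gene and are not separate results, and the share of such pairs among other genes was not computed. The log2 ratio of Lss to Hsd17b7 was 0.90, 1.08, 1.14 and 1.15 with shNT, against 0.17, 0.24, 0.15 and 0.64 with shXBP1, a difference of -0.77. That of Cyp51 to Hsd17b7 was 3.51, 3.19, 3.58 and 3.63 and then 2.86, 2.86, 2.79 and 2.79, a difference of -0.65. For Msmo1, Fdft1, Sqle and Nsdhl the differences from Hsd17b7 were -0.58, -0.41, -0.37 and -0.37. The log2 ratio of Sqle to Lss was higher by 0.40 with shXBP1. The nearest pairs were Sqle and Nsdhl, with a difference of 0.00 between ratios of 2.23 ± 0.12 and 2.23 ± 0.17, and Fdft1 and Nsdhl, with -0.03 (1.48 ± 0.14 and 1.44 ± 0.05). Cyp51 and Msmo1, the highest 2 by FPKM, differed by -0.07 (1.01 ± 0.07 and 0.94 ± 0.08; SD, n = 4 each; two-sided exact permutation p = 0.257).

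**Figure D2:**
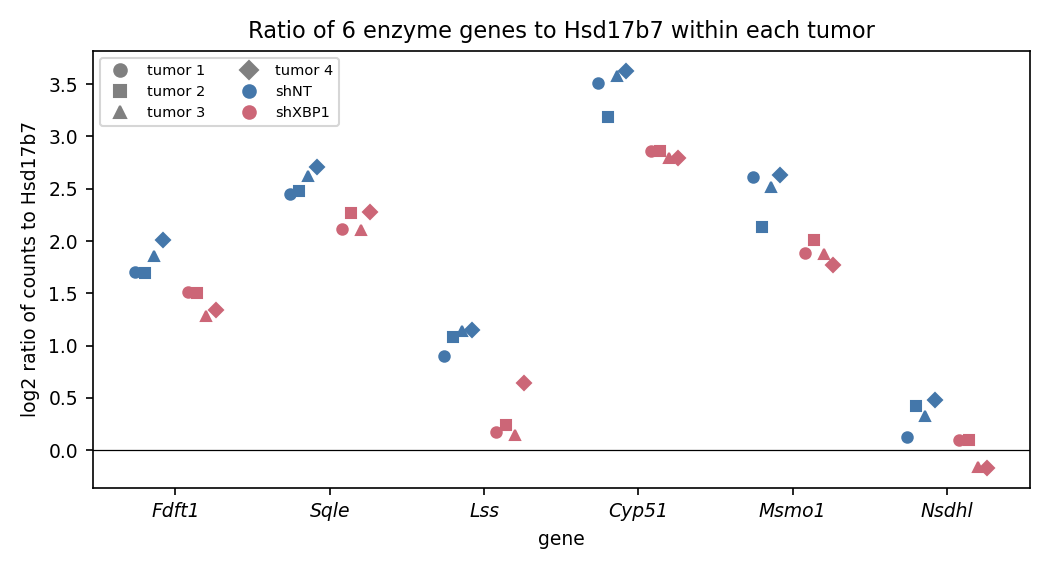
The log2 ratio of the counts of 6 enzyme genes to those of Hsd17b7 within each tumor, for shNT (blue) and shXBP1 (red). For each gene the shXBP1 ratios lie below the shNT ratios; for Nsdhl the nearest tumors are at 0.13 and 0.10.

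Within a group, the order of the tumors was alike for most of the 7 genes, with Cyp51 and Msmo1 apart among the shNT tumors. Deviations were taken as log2 CPM minus the mean of the group. Among shXBP1 tumors, tumor 2 was the lowest for all 7 genes, from -0.45 for Lss to -0.25 for Nsdhl. Tumor 4 was the highest for Fdft1 (0.18), Sqle (0.33) and Lss (0.59). For Msmo1 tumor 3 was the highest (0.24), and for Cyp51, Nsdhl and Hsd17b7 tumors 3 and 4 were within 0.01 of each other. Among shNT tumors, tumor 2 was the highest for Fdft1, Sqle, Lss, Nsdhl (0.35) and Hsd17b7, but for Cyp51 and Msmo1 it stood at -0.02 and -0.07. For those 2 genes tumor 1 was the highest, by 0.17 and 0.27. These are descriptions of 4 tumors a group, with no test.

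**Figure D3:**
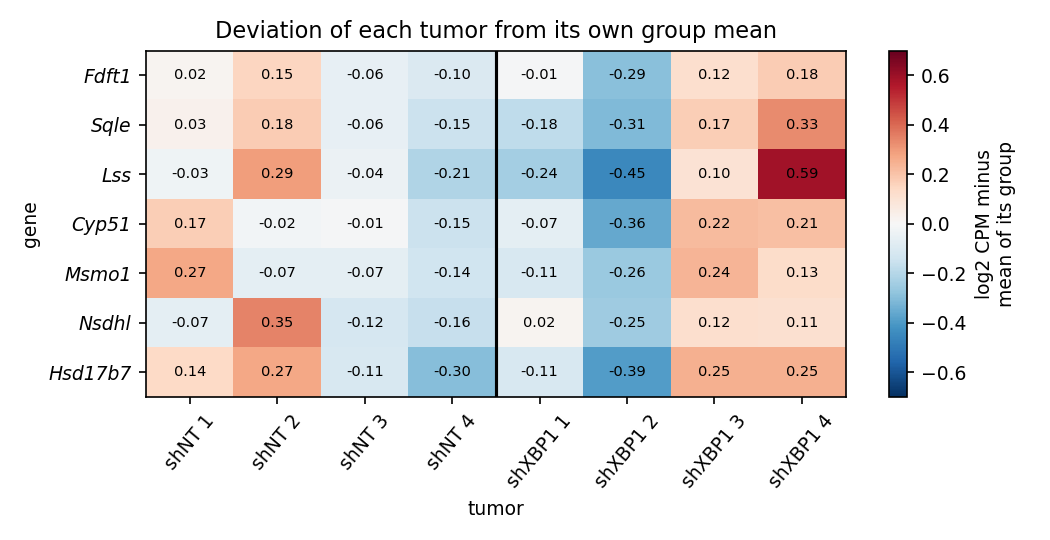
Deviation of each tumor from the mean of its own group (log2 CPM, colour and number) for the 7 genes in pathway order. The column of shXBP1 tumor 2 is negative for all 7 genes, and shNT tumor 2 is raised for all but Cyp51 and Msmo1.

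Genes whose profile over the 8 tumors was most like the mean of the 7 were ranked by Pearson r of log2 CPM, as a description over tumors that share the group difference. The 10 highest were Rfc1, Idi1, Elovl6, Stard4, Acat2, Mcmbp, Hmgcs1, Acsl3, Cyb5b and Rnaseh2a, the last with r = 0.994. Idi1, Acat2 and Hmgcs1 are mevalonate enzymes, Elovl6 lengthens fatty acids, and Rfc1 loads the replication clamp. All 10 were called lower, from -1.90 for Idi1 to -0.19 for Mcmbp on the log2 scale. With the group means removed the 10 highest were Dcbld2 (r = 0.997), Rfc1, Afg3l2, Tada2a, Mcm6, Mia2, Pdp2, Recql4, Mtmr9 and Mpg (r = 0.954). Afg3l2, Mia2 and Mtmr9 were not called between groups, with log2 fold changes of 0.03, 0.01 and -0.23. Rfc1 was in both sets, with a log2 fold change of -0.42 (SE 0.07, edgeR adjusted p = 0.00097).

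The enzymes before squalene also fell, and the other enzymes listed after lanosterol did not all fall. All 7 mevalonate pathway genes reported here (Acat2, Hmgcs1, Mvk, Pmvk, Mvd, Idi1 and Fdps) were called lower, with a median log2 fold change of -1.83 and a range from -1.90 (Idi1 and Fdps) to -1.21 (Pmvk, phosphomevalonate kinase). Of 5 enzymes listed as late 3 fell, with a median of -0.25. Sc5d, a desaturase, fell by 1.20 on the log2 scale (SE 0.10, edgeR adjusted p = 1.25e-05). Dhcr7 fell by 0.52 and Lbr by 0.25, and the call of Lbr did not survive leaving out any 1 tumor other than the tumors numbered 4 (adjusted p = 0.0528 to 0.0937). Tm7sf2, a sterol 14-reductase like Lbr that acts right after Cyp51, stood at 37.8 ± 3.16 and 36.6 ± 3.25 CPM (adjusted p = 0.758), and Ebp, the sterol isomerase, at 35.3 ± 3.28 and 35.3 ± 3.38 CPM (SD, n = 4 each; adjusted p = 0.998). The difference between these lists was not tested.

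**Figure D4:**
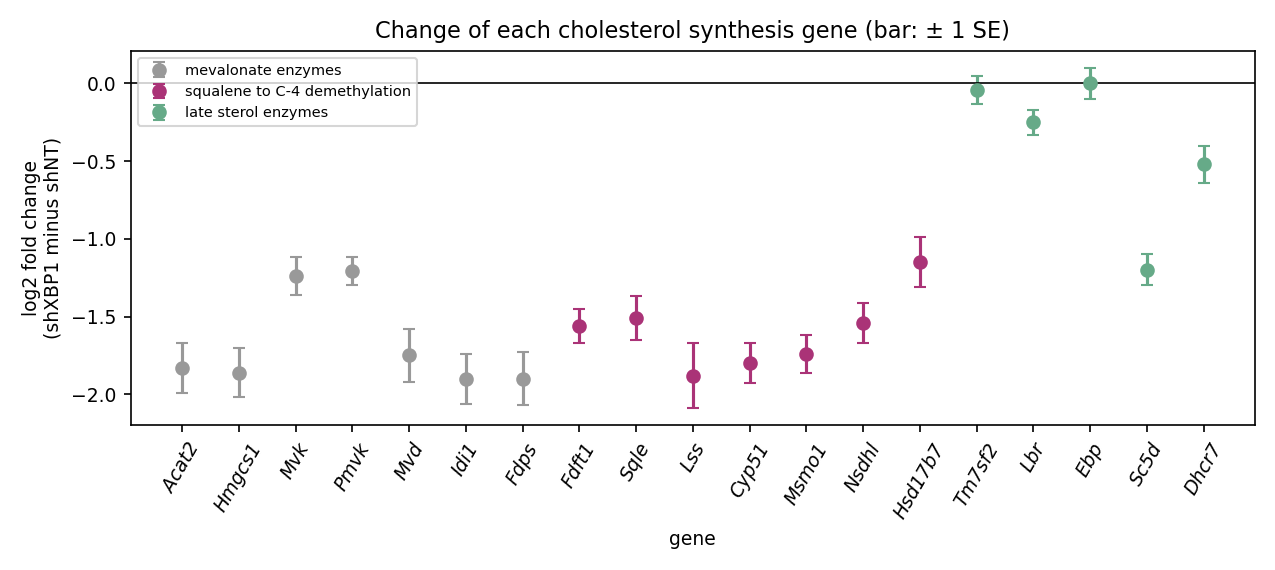
The log2 fold change (shXBP1 minus shNT, ± 1 SE) of 7 mevalonate enzymes (grey), the 7 enzymes from squalene to demethylation at carbon 4 (purple) and 5 late sterol enzymes (green). The grey and purple points lie between -1.90 and -1.15, and the green points range from -1.20 (Sc5d) to 0.00 (Ebp).

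Sterol oxidations draw electrons from membrane carriers, and these were divided. Of 6 measured carriers and scaffold genes, 2 fell, 1 rose and 3 did not pass, with a median of -0.22. Faxdc2 was not analysed here. Cyb5b, a cytochrome b5 of the mitochondrial outer membrane, was at 446 ± 45.5 and 234 ± 22.1 CPM and fell by 0.93 (SE 0.10, edgeR adjusted p = 4.97e-05). Cyb5a, the cytochrome b5 of the endoplasmic reticulum, rose from 49.8 ± 5.14 to 85.0 ± 14.3 CPM (log2 fold change 0.77, SE 0.12, edgeR adjusted p = 0.00065; SD, n = 4 each). With Ptprc as a covariate 0 of the 6 were called, with Cyb5a at 0.10 (adjusted p = 0.858) and Cyb5b at -0.55 (adjusted p = 0.188). Under that covariate 106 of all 14907 genes were called lower and 134 higher. Por, the reductase that feeds electrons to Cyp51 and to Sqle, was at 71.9 ± 5.19 and 72.6 ± 12.5 CPM (adjusted p = 0.936). Its log2 fold change was 0.01, and 0.66 with Ptprc as a covariate (SE 0.17, edgeR adjusted p = 0.0714). Cyb5r3, the reductase of cytochrome b5, fell by 0.33, a call lost in 6 of the 8 fits with 1 tumor left out, those without shNT 2, 3 or 4 and those without shXBP1 1, 2 or 3 (adjusted p = 0.0519 to 0.0768). Erg28, a scaffold of the demethylation enzymes, had a log2 fold change of -0.10 (adjusted p = 0.485), and Sec14l2, which binds squalene, -0.69 at about 1 CPM (adjusted p = 0.139).

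Genes of the other branches from farnesyl diphosphate mostly did not pass. Of 8, among them the prenyltransferase subunits Fnta and Fntb and the dolichol enzymes Dhdds and Nus1, 1 fell and 7 did not pass, with a median of -0.13. The 1 that fell was Cox10, of heme A synthesis, by 0.52 (SE 0.13, edgeR adjusted p = 0.0092), a call lost with Ptprc as a covariate (-0.02, adjusted p = 0.983). Ggps1, the geranylgeranyl diphosphate synthase, was at 45.7 ± 4.48 and 44.7 ± 5.26 CPM (SD, n = 4 each; adjusted p = 0.85).

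The machinery that activates sterol genes fell in part. Of 7 SREBP genes 4 fell, 1 rose and 2 did not pass, with a median of -0.37. Srebf2, which encodes SREBP2, was at 335, 387, 362 and 350 CPM with shNT, against 187, 140, 176 and 257 CPM with shXBP1. It was lowest in shXBP1 tumor 2, as were all 7 enzymes, and highest of its group in shXBP1 tumor 4, as were Fdft1, Sqle and Lss. Its log2 fold change was -0.92 (SE 0.15, edgeR adjusted p = 0.00118). Insig1, a feedback retention protein that SREBPs also induce, fell by 1.53 (SE 0.24), Srebf1 by 0.44 and Mbtps2, a protease that releases SREBPs, by 0.37. Insig2, the paralog of Insig1, rose by 0.53 (SE 0.10, edgeR adjusted p = 0.00202). Scap, the sterol sensor, and Mbtps1, the first protease, did not pass, at -0.18 and -0.23, and Mbtps1 was called lower without shNT tumor 1 (-0.32) or shXBP1 tumor 4 (-0.30). With Ptprc as a covariate 0 of the 7 SREBP genes were called and 0 were lower even unadjusted, with a median of 0.19. Of all 14907 genes, 106 were called lower under that covariate, 134 were called higher and 1181 were lower unadjusted. Srebf2 was then at -0.07 (SE 0.20, edgeR adjusted p = 0.901) and Insig1 at -0.27 (SE 0.23, adjusted p = 0.612).

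Stard4, a sterol carrier and another target of SREBP2, fell by 1.34 (SE 0.11, edgeR adjusted p = 9.32e-06). Mylip, a ubiquitin ligase that liver X receptors induce, rose by 1.31 (SE 0.14, edgeR adjusted p = 5.74e-05). Of 5 genes that act in the degradation of sterol enzymes 1 rose and 4 did not pass. Marchf6, the ubiquitin ligase for squalene epoxidase, was at 95.6 ± 3.10 and 102.6 ± 5.50 CPM (SD, n = 4 each; adjusted p = 0.308). The 1 that rose, Syvn1, had a log2 fold change of 0.25 (adjusted p = 0.0479), a call lost in each fit with 1 tumor left out except that without shXBP1 tumor 2 (adjusted p = 0.053 to 0.124).

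Markers of host cells moved against the sterol enzymes. Of 11 leukocyte markers tested 10 rose and 0 fell, with a median log2 fold change of 1.52. The summed level of 12 leukocyte markers was 349, 276, 370 and 356 CPM with shNT, against 772, 942, 880 and 548 CPM with shXBP1. The B cell marker Cd79a was near 0. The shXBP1 tumor with the most leukocyte RNA, tumor 2, was the one with the least of all 7 enzymes, and shNT tumor 2 had the least leukocyte RNA of its group. Not all tumors followed this order. In shNT tumor 2 Cyp51 and Msmo1 were not raised (deviations of -0.02 and -0.07). More leukocyte RNA was found in shXBP1 tumor 3 than in tumor 1, yet all 7 enzymes were higher in tumor 3. Most leukocyte RNA among shNT tumors was in tumor 3, but each enzyme was lowest in tumor 4. Of 6 fibroblast markers 4 rose (885 to 1209 CPM summed in shNT, 1638 to 2122 CPM in shXBP1). Without Dcn, which encodes decorin, the sums overlapped, at 619.5 to 857 CPM in shNT and 633.7 to 894.5 CPM in shXBP1, and the collagen genes Col1a1 and Col1a2 had log2 fold changes of 0.05 and -0.26 that did not pass. Of 4 endothelial markers 3 rose (33.1 to 41.2 and 74.7 to 85.6 CPM). The part of fibroblasts and endothelium in the fall of the enzymes was not tested.

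Ptprc, the CD45 gene of leukocytes, was entered as a covariate by its log2 CPM. All 7 enzymes then had negative fold changes with a median of -0.97, 3 were called and 6 were lower at an unadjusted p below 0.05. Over all 14907 genes tested, 1181 were lower at that unadjusted p. Msmo1 was at -1.58 (SE 0.30, edgeR adjusted p = 0.031), Cyp51 at -1.47 (SE 0.28, adjusted p = 0.0232) and Fdft1 at -1.10 (SE 0.21, adjusted p = 0.0194). Nsdhl was at -0.97 (adjusted p = 0.0782), Sqle at -0.86 (adjusted p = 0.0797), Lss at -0.79 (adjusted p = 0.147) and Hsd17b7 at -0.51 (adjusted p = 0.463). Msmo1 and Cyp51 thus kept 91.1% and 81.6% of their log2 fold change, and Lss and Hsd17b7 42.0% and 44.6%. Whether the 7 genes differ in how much they kept was not tested. Ptprc itself differed between the groups, the SE of the 7 was 1.98 times as large at the median, and over all genes 106 were then called lower and 134 higher. Under the same covariate 2 of the 7 mevalonate enzymes were called lower (Hmgcs1 and Pmvk) and 7 were lower unadjusted. Of the 5 late enzymes 1 was called lower (Sc5d), which was also the 1 lower unadjusted, and Dhcr7 was at -0.04 (adjusted p = 0.95). Stard4 stayed called (-0.91, edgeR adjusted p = 0.0418), and Mylip did not (adjusted p = 0.112).

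**Figure D5:**
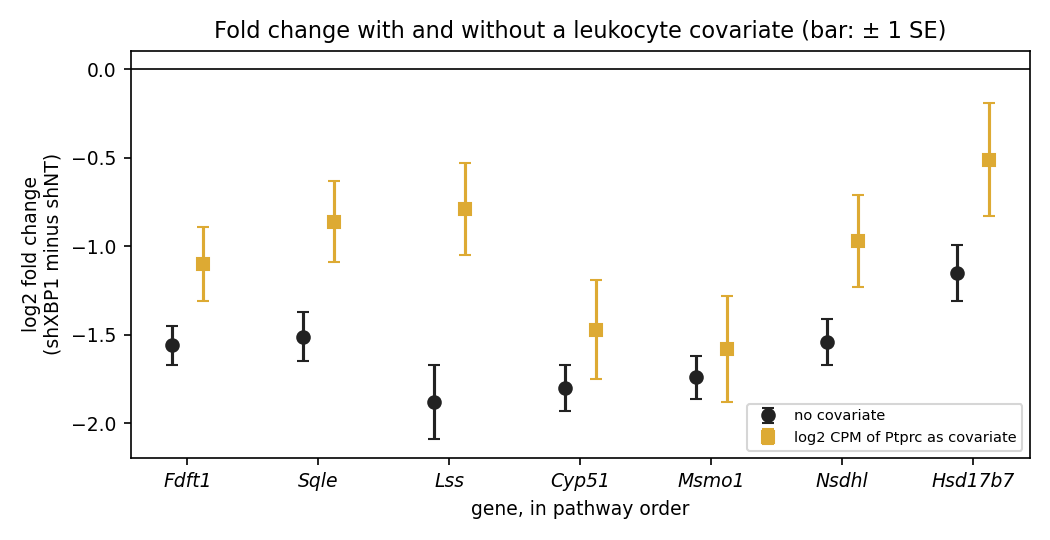
The log2 fold change (± 1 SE) of each enzyme gene without a covariate (black circles) and with Ptprc (log2 CPM) as a covariate (yellow squares). With the covariate Cyp51 and Msmo1 lie at -1.47 and -1.58, and Lss and Hsd17b7 at -0.79 and -0.51.

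Epithelial markers could not serve as a measure of carcinoma RNA. The labels call the cells colon adenocarcinoma, yet the 8 markers of colon carcinoma cells summed to 5.74 to 7.97 CPM with shNT and 7.65 to 11.2 CPM with shXBP1, most of it Cdh1. Krt8 had 19 and 11 counts per group in all, Krt18 0 and 4, and Cdx2 0 and 0. The ratio of each enzyme to Krt8 and Krt18 was therefore uncertain, with differences from -1.35 (Lss) to -0.58 (Hsd17b7) on the log2 scale and 0 of 7 passing (two-sided exact permutation test, adjusted p = 0.4 to 0.571). Krt14, listed among keratinocyte and sebocyte markers, was at 175 ± 26.7 and 49.4 ± 2.33 CPM (SD, n = 4 each; log2 fold change -1.83, SE 0.11, edgeR adjusted p = 2.04e-06). Its partner in skin, Krt5, had 3 and 141 counts per group and Mc5r, of sebaceous glands, 0 and 0. Adipocyte markers summed to at most 1.06 CPM with shNT and 1.82 CPM with shXBP1, and 0 of 4 muscle and 0 of 4 red cell markers were called. Of 6 proliferation genes 3 fell, by 0.41 (Top2a), 0.32 (Mki67) and 0.32 (Mcm2), and 3 did not pass, with a median of -0.25. The call of Mcm2 was lost in 6 of the 8 fits with 1 tumor left out, all but those without a tumor numbered 4. With Ptprc as a covariate 0 of the 6 proliferation genes were called, beside 106 of all 14907 genes called lower and 134 called higher. The part of proliferation in the fall of the enzymes was not tested.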

How the data were processed

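Per the file headers, the deposited table gives a count and an FPKM value per gene and tumor, and the authors' own DESeq2 comparison with a log2 fold change. The authors' counts are whole numbers without normalization, and their FPKM values are scaled to gene length and library size. GRCm38 was the genome build, per the submitters' processing notes; for the aligner, counter and strand setting the sources used here give nothing.

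Samples were grouped by the genotype label. Counts were filtered with filterByExpr, scaled by TMM and tested with edgeR's quasi-likelihood test (version 4.0.16, R 4.3.3, robust, two-sided, all 8 tumors, no covariate), adjusted by Benjamini-Hochberg over 14907 genes. CPM means are given with the SD over 4 tumors. Within-tumor ratios used counts plus 2. Alternatives used limma voom (3.58.1), DESeq2 (1.42.0), other size factors, other filters, glmQLFit without robust, a block for tumor number, a Ptprc covariate, a threshold of 0.01 and leaving out each tumor. The procedure was tested on simulated counts. Counts of tumors within a group differed by a chi-square of at least 16.2 per degree of freedom, so no library was treated as a repeat of another. Loci and exon overlaps came from GENCODE M21, near copies from blastn, and promoters from RefSeq; motifs were searched on both strands.

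The members and gene lists were chosen with earlier results of these data known. Genes named are the members, the listed genes, Xbp1, and the 10 genes most like the members over all tumors and with group means removed; genes that overlap a member were added for the reads they share. Marchf6 was matched by its gene identifier. Some listed genes are not reported here, and the list counts leave them out.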

Additional observations from a re-analysis of the deposited data

Results flagged for a closer look

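Of 16 groups of 4 tumors, for the 7 enzymes and Xbp1, 2 had 1 tumor far from the other 3 by Dixon's criterion, which chance meets in about 1 of 20 groups. Msmo1 was at 264.1 CPM in shNT tumor 1, with the other shNT tumors between 198.6 and 208.4 CPM, so that the gap made up 0.85 of the range. Nsdhl was at 63.56 CPM in shNT tumor 2, with the others between 44.59 and 47.39 CPM (0.852 of the range). Without those tumors the log2 fold change was -1.63 for Msmo1 and -1.41 for Nsdhl, and both stayed called (edgeR).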

How the results depend on the processing

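Over 10 other settings and 8 fits without 1 tumor, all 126 fold changes of the 7 enzymes were negative and 122 were called; the 4 not called were those with the Ptprc covariate, under which 3 members were called lower. Leaving out 1 tumor gave 7 of 7 each time. Over all genes, leaving out 1 tumor gave 1303 to 2401 genes lower (1303 without shNT tumor 3) and 2058 to 2904 higher. The replicate block gave 1304 lower, the Ptprc covariate 106 lower and 134 higher, and a threshold of 0.01 gave 879 lower and 1644 higher. Same-numbered tumors did not deviate together (r = -0.141 to -0.0247 over genes). No pairing by number was thus seen, though a weak one could be missed. Under the block all 7 enzymes stayed called, and the calls of Lbr, Syvn1, Mki67 and Mcm2 were among those lost. For ratios within tumors, the exact sign-flip test over the 4 numbered pairs cannot go below p = 0.125. Among genes called without it, the Ptprc covariate turned the log2 fold change of Cyb5r3 (0.10), Srebf1 (0.19) and Mcm2 (0.09). None of them was called then, and the cause was not tested. The ratio to keratins passed for 0 of 7, but for 6 with a pseudocount of 10, 7 with FPKM and 5 with Krt19 and Epcam as the denominator. These denominators hold few counts, with Krt8 at 19 and 11 per group and Krt18 at 0 and 4. A pseudocount of 10 then largely sets the denominator, so that passing mostly repeats the fall of the enzyme counts. None of these settings is a separate measure of carcinoma RNA. Of 970 values of 54 genes, 901 kept their call, 64 lost it, 2 gained it and 3 turned. The 901 include genes not called in either fit whose sign changed, such as Tm7sf2 (-0.04, and 0.30 with the Ptprc covariate). Depth limits Sec14l2, Krt8, Krt18, Krt19 and Krt20, at under 2 CPM.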
